A study of Homo sapiens with 11 samples.

Results

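The genes described here are SREBF1 and 9 genes of fatty acid synthesis and handling (ACLY, FASN, SCD, FADS1, FADS2, ELOVL5, ELOVL6, ACSL1 and ACSL3). They were taken by gene symbol, which gave 10 genes of the 38557 in the count table, and all 10 were among the 14683 genes with enough counts to be tested. RNA had been sequenced from MOLM-13, a human acute myeloid leukemia line with a rearranged KMT2A gene (KMT2A-r), after 72 h in culture under 3 conditions. The controls were 4 libraries from cells given the solvent DMSO. Another 4 libraries came from cells given 1 µM MI-503, a Menin-inhibitor that blocks the contact between Menin and KMT2A. The last 3 libraries, numbered 1, 2 and 4, came from cells that received the same dose of MI-503 and, in addition, PR-957 at 100 nM. PR-957 blocks PSMB8, one of the catalytic subunits that the immunoproteasome uses to cut proteins. All libraries came from this single cell line, and the labels do not say whether replicates were separate cultures, so the p-values measure the spread among these libraries only. No library with PR-957 alone was analysed here, so the values for PR-957 are those of adding it to MI-503.

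SREBF1 encodes SREBP1, a transcription factor that is made as a membrane protein, is escorted by SCAP from the endoplasmic reticulum to the Golgi when sterols are low, and is cut there to release a fragment that enters the nucleus. The fragment switches on genes that turn citrate into fatty acids. ACLY splits citrate into acetyl-CoA, FASN builds palmitate from it, ELOVL6 and ELOVL5 lengthen fatty acid chains, SCD, FADS1 and FADS2 insert double bonds, and the ACSL enzymes activate fatty acids by joining them to coenzyme A. Protein, cleavage of SREBP1 and lipids were not measured in these files.

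The libraries held between 18.9 and 41.2 M counted fragments, and the 10 genes were backed by 86 fragments (ELOVL6, MI-503 + PR-957 replicate 2) to 72987 fragments (SCD, MI-503 + PR-957 replicate 1) per library. MI-503 + PR-957 replicate 1, the deepest library, stood apart from its group. Its counts differed from those of replicates 2 and 4 by a chi-square of 19.4 and 33.3 for each degree of freedom, against 4.59 between replicates 2 and 4 and 1.71 to 5.97 between replicates of the other groups. Results for the 10 genes that rest on it, and the medians of the gene lists, are therefore also given without it. Of 12 genes of myeloid leukemia identity, 11 were tested (CD14 had too few counts), among them SPI1 with 217 to 228 CPM (fragments per M counted) and FLT3 with 309 to 333 CPM in DMSO, and of 12 markers of other cell types 4 were tested, PECAM1, also found on myeloid cells, being the most abundant with 46.5 to 55.7 CPM in DMSO, 106 to 112 in MI-503 and 125 to 183 in MI-503 + PR-957. MS4A1, ADIPOQ and PLIN1 were at 0 in every library, and CD3E, HBB, EPCAM and ALB had at most 3 fragments in any library. Whether the rise of PECAM1 had a part in the results was not tested.

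Per length of transcript, SCD was the most abundant of the 10 mRNAs in DMSO cells with 406 ± 20.5 RPKM (fragments per kilobase of exon per M counted fragments, mean ± SD, n = 4). FASN followed with 160 ± 4.55 RPKM, FADS2 with 102 ± 7.81, ACLY with 85.2 ± 0.914, SREBF1 with 74.2 ± 5.82 and ELOVL5 with 59.3 ± 2.78. ACSL3 (21.2 ± 1.07 RPKM), FADS1 (16.3 ± 1.92) and ACSL1 (15.1 ± 1.09) were lower, and ELOVL6 was the lowest with 0.920 ± 0.135 RPKM. The libraries of neighbors in this order did not overlap, except for FADS1 and ACSL1. In MI-503 cells FADS1 stood above ACSL3, with 26.7 ± 0.716 against 18.4 ± 0.443 RPKM, and no neighbors overlapped. In MI-503 + PR-957 cells the libraries overlapped between FADS2 and ACLY, ACLY and SREBF1, SREBF1 and ELOVL5, FADS1 and ACSL3, and ACSL3 and ACSL1.

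The sequences just upstream of 4 of the genes are given because SREBF1 is the regulator in the group and the desaturase genes SCD, FADS1 and FADS2 were among those with the largest differences. They are RefSeq sequences of GRCh38.p14, on the strand of the gene, and end at the base before the first base counted for the gene. FADS1 and FADS2 lie head to head on chromosome 11. The first base of FADS1 (61817003, minus strand) lies inside FADS2 and that of FADS2 (61816203, plus strand) inside FADS1, so that both genes span 801 bases in common and the FADS2 stretch lies inside the FADS1 gene. Capitals mark the CCAAT box and the GC box (GGGCGG, or CCGCCC where it lies on the other strand).
SREBF1, chr17:17837018-17837236, minus strand: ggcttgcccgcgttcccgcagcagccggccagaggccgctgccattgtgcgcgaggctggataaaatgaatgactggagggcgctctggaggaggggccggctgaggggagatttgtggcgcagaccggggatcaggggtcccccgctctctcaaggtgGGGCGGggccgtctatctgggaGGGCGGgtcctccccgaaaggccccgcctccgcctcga
SCD, chr10:100346983-100347232, plus strand: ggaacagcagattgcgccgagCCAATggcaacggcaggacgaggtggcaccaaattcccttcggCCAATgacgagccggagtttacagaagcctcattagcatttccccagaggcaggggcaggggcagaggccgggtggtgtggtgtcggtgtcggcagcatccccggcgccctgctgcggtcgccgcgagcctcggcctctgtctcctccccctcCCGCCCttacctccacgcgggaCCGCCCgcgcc
FADS1, chr11:61817004-61817253, minus strand: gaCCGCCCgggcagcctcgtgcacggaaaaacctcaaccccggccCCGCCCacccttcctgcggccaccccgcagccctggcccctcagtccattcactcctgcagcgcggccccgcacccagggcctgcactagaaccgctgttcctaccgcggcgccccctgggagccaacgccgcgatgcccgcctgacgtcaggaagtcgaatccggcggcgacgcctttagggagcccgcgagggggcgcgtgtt
FADS2, chr11:61815953-61816202, plus strand: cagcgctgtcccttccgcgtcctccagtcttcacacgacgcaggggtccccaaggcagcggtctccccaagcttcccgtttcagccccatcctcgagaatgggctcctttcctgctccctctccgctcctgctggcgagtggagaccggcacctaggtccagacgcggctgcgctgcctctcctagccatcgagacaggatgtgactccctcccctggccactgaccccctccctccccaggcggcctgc
The SCD stretch held 2 CCAAT boxes and 2 GC boxes, those of SREBF1 and FADS1 held 2 GC boxes each and no CCAAT box, and that of FADS2 held neither. The printed motifs of different kinds did not overlap. RefSeq windows of 250 bases were found for 9 of the 10 genes (15 windows with alternative starts), and FASN was without an entry. The sterol regulatory element spelled TCACNCCAC was in 1 of the 15, at an alternative start of ACSL1, and the E-box CACGTG was in 1, that of ELOVL5. Over both strands of all 35116 windows of this length, these letters were in 0.883% and 6.34%, the CCAAT box in 32.0% and the GC box in 42.6%. A match is a run of letters and not a measured binding site. Only these spellings within 250 bases were searched, so a missing match does not show that a gene lacks the element.

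To see which of the 10 genes responded to Menin inhibition, MI-503 was compared with DMSO. FADS1, FADS2 and ELOVL6, which desaturate and lengthen fatty acids, and FASN rose, ACSL3 fell, and SREBF1, SCD, ACLY, ELOVL5 and ACSL1 were not called. Thus 4 of 10 were called higher, against 22% of all tested genes, and 1 of 10 was called lower, against 29.3%. The same 4 genes had all MI-503 libraries above all DMSO libraries (21.2% of tested genes) and ACSL3 had all of them below (29.1%). The median log2 fold change was 0.08 over the 10 genes and -0.03 over all tested genes. Without MI-503 + PR-957 replicate 1, 6 of the 10 were called higher, ELOVL5 and ACSL1 being added, and their median was 0.13. Without DMSO replicate 3 the median was 0.05. ELOVL5 (adjusted p = 0.0114) and ACSL1 (adjusted p = 0.00792) were also called higher when only the MI-503 and DMSO libraries were fitted. With upper-quartile scaling ELOVL5 was called too (adjusted p = 0.0468). Calls were made where the adjusted p was under 0.05 (edgeR's quasi-likelihood test, two-sided, Benjamini-Hochberg adjusted over all tested genes), and this is the adjusted p given throughout. With upper-quartile scaling the calls over all genes split into 3968 higher and 3356 lower, in place of 3235 and 4307.

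To see what PR-957 added, MI-503 + PR-957 was compared with MI-503. Of the 10 genes, 9 fell and none rose, ACSL1 being the one not called, where 23.8% of tested genes were called lower and 23.6% higher. For 8 of these 9 all 3 libraries lay below all 4 MI-503 libraries (23.7% of tested genes), the exception being SREBF1. The median log2 fold change was -0.43 over the 10 genes (-0.52 without replicate 1) and 0.00 over all tested genes. The summed level of the 10 genes was 5485 ± 197 CPM in MI-503 and 3797 ± 588 CPM in MI-503 + PR-957, the DMSO libraries being at 5151 ± 131 CPM. SCD (2082 CPM) and FASN (1575 CPM) made up most of the sum in MI-503. In MI-503 + PR-957 the sum was 4473 CPM in replicate 1, 3403 in replicate 2 and 3516 in replicate 4. In bulk RNA, fewer cells of a kind and less RNA per cell cannot be told apart.

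Against DMSO, MI-503 + PR-957 lowered 8 of the 10 genes and raised none, with 32.8% of tested genes called lower and 31.7% higher. FADS1 and ACSL1 were not called. For 6 of the 8 the groups did not overlap (31.2% of tested genes), FADS2 and SREBF1 being the exceptions, and the median was -0.31 over the 10 genes (-0.38 without replicate 1) and 0.01 over all tested genes. This comparison shares its DMSO libraries with the first and its MI-503 + PR-957 libraries with the second.

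**Figure D1:**
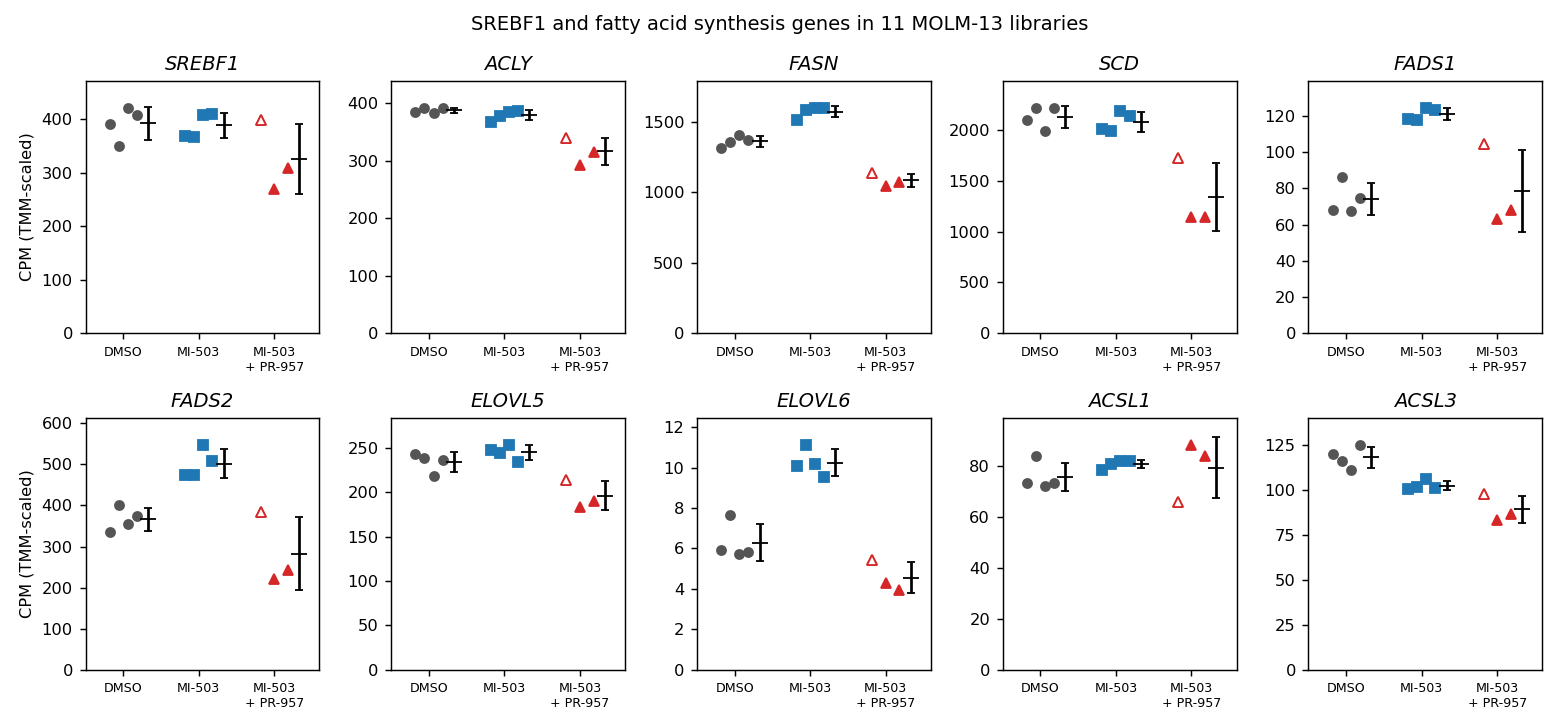
CPM (TMM-scaled, linear axis from 0) of the 10 genes in each library, with DMSO as gray circles, MI-503 as blue squares and MI-503 + PR-957 as red triangles, replicate 1 of the last group open; black bars are mean ± SD. FADS1, FADS2, FASN and ELOVL6 were higher in every MI-503 library than in any DMSO library, and for 9 of the 10 genes the open triangle is the highest of the 3 red symbols.

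SREBF1 itself, the regulator, whose counted exons lie between 17811334 and 17837017 on chromosome 17 in hg38, was at 390, 350, 421 and 407 CPM in DMSO replicates 1 to 4 and at 368, 367, 408 and 409 CPM in MI-503 replicates 1 to 4. In MI-503 + PR-957 it was at 398 CPM in replicate 1, 270 in replicate 2 and 308 in replicate 4. Replicate 1 lay within the range of the MI-503 libraries and the other two below every library of the other groups. MI-503 left no detectable difference (log2 fold change -0.01, 95% interval -0.20 to 0.17, adjusted p = 0.91), and its sign turned in 13 of 20 alternative analyses. With PR-957 added SREBF1 fell, with a log2 fold change of -0.25 against MI-503 (SE 0.10, adjusted p = 0.0412) and -0.27 against DMSO (SE 0.10, adjusted p = 0.0235), and the call was lost in 11 and 8 of the 20 alternatives. Without replicate 1 the same values were -0.45 (adjusted p = 4.67e-06) and -0.42 (adjusted p = 5.96e-06), and without replicate 2 they were -0.17 (adjusted p = 0.13) and -0.15 (adjusted p = 0.153). Counts do not separate the SREBP1a and SREBP1c transcripts, which start at different first exons.

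ACLY and FASN, which make acetyl-CoA and palmitate, were the steadiest of the 10 in DMSO, with SDs of 1.07% and 2.85% of the mean. ACLY was at 386, 392, 383 and 391 CPM in DMSO and at 368, 379, 386 and 387 CPM in MI-503, which overlap (log2 fold change -0.03, 95% interval -0.12 to 0.06). With PR-957 added it was at 340, 293 and 316 CPM, below every other library, a log2 fold change of -0.26 against MI-503 (SE 0.05, adjusted p = 2.39e-04). FASN moved in opposite directions in the treatments. It was at 1318, 1359, 1412 and 1372 CPM in DMSO and rose to 1515, 1584, 1599 and 1601 CPM in MI-503 (1.15-fold, log2 fold change 0.21, SE 0.04, adjusted p = 5.22e-04). With PR-957 added FASN was at 1139, 1050 and 1074 CPM, below all libraries of both other groups. The fall was 1.45-fold against MI-503 (log2 fold change -0.53, SE 0.05, adjusted p = 8.29e-08) and 1.26-fold against DMSO (-0.33, SE 0.05, adjusted p = 6.53e-06). For FASN the 3 libraries lay close together, and without replicate 1 the log2 fold change against MI-503 was -0.59.

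Among the desaturases, FADS1 and FADS2, which make polyunsaturated fatty acids, were called higher with MI-503 and SCD, which makes monounsaturated oleate, was not. The difference between these responses was not tested. SCD was at 2097, 2217, 1994 and 2217 CPM in DMSO and at 2006, 1995, 2187 and 2139 CPM in MI-503, with overlapping ranges and a log2 fold change of -0.03 (95% interval -0.24 to 0.17). With PR-957 added it was at 1723 CPM in replicate 1, 1146 in replicate 2 and 1142 in replicate 4. All 3 lay below every other library, and the fall was 1.56-fold against MI-503 (log2 fold change -0.64, SE 0.11, adjusted p = 1.1e-04). Without replicate 1 the log2 fold change was -0.89. In hg38 the counted SCD exons lie between 100347233 and 100364826 on chromosome 10.

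FADS1, the delta-5 desaturase, was at 68.2, 86.3, 67.4 and 74.8 CPM in DMSO and at 119, 118, 124 and 123 CPM in MI-503. Every MI-503 library lay above the DMSO range, and the rise was 1.63-fold (log2 fold change 0.71, SE 0.12, adjusted p = 7.92e-05). With PR-957 added FADS1 was at 105, 63.0 and 68.2 CPM. Replicate 2 lay below the DMSO range, replicate 4 within it and replicate 1 between the DMSO and MI-503 ranges. The log2 fold change against MI-503 was -0.61 (SE 0.13, adjusted p = 7.52e-04) and -0.91 without replicate 1. The log2 fold change against DMSO, 0.10 (adjusted p = 0.507), turned to -0.15 (adjusted p = 0.0692) without it.

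FADS2, the delta-6 desaturase, was at 335, 401, 355 and 373 CPM in DMSO and at 474, 474, 548 and 509 CPM in MI-503, a 1.37-fold rise (log2 fold change 0.45, SE 0.12, adjusted p = 0.0042) with no overlap. With PR-957 added it was at 384, 222 and 243 CPM. All 3 libraries lay below the MI-503 range, but replicate 1 lay within that of DMSO. FADS2 fell by 0.82 on the log2 scale against MI-503 (SE 0.13, adjusted p = 7.27e-05), and by 1.13 without replicate 1. Against DMSO the log2 fold change of -0.37 (adjusted p = 0.0203) was not called in 7 of 20 alternatives, and without replicate 1 it was -0.63 (adjusted p = 1.47e-08). FADS1 and FADS2 share 3.96% of the exon bases of FADS2 and the counting used no strand, so fragments there went to neither gene.

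**Figure D2:**
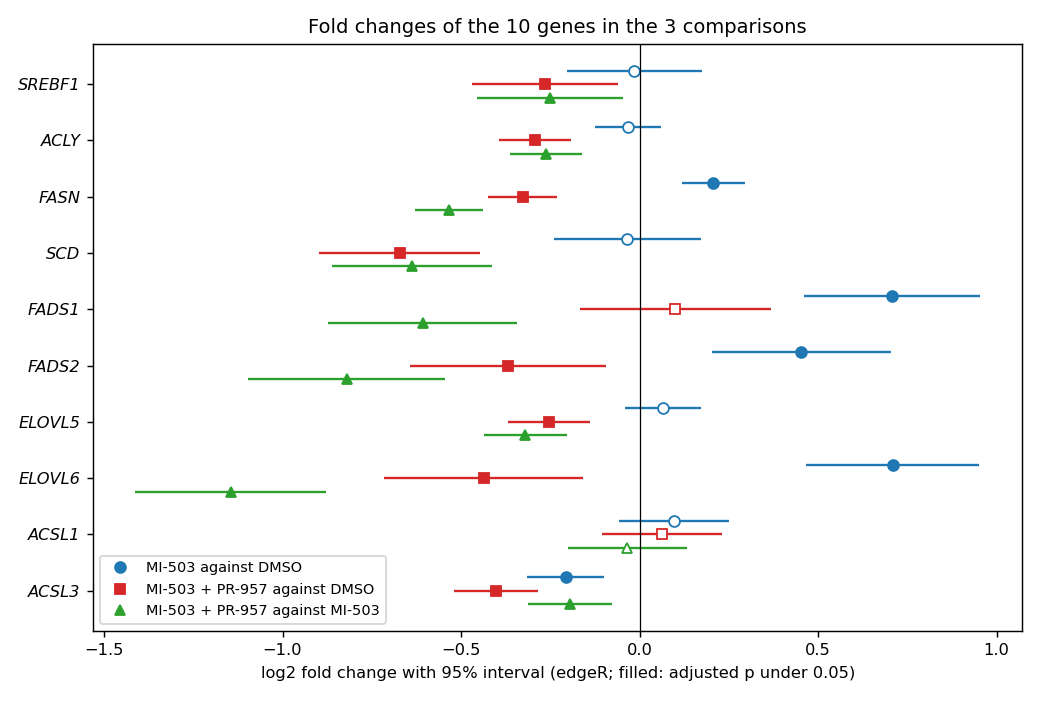
Log2 fold change of each gene with its 95% interval (horizontal lines) in MI-503 against DMSO (blue circles), MI-503 + PR-957 against DMSO (red squares) and MI-503 + PR-957 against MI-503 (green triangles); filled symbols have an adjusted p under 0.05 and the vertical line is no difference. ELOVL6 and FADS1 had the largest rises (0.71 each), ELOVL6 had the largest fall (-1.15), and ACSL1 is open in all 3 comparisons.

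The elongases stood far apart in level. ELOVL6, which lengthens palmitate, was at 5.91, 7.67, 5.74 and 5.84 CPM in DMSO, where replicate 2 stood above the rest, and at 10.1, 11.1, 10.2 and 9.54 CPM in MI-503. The rise was 1.63-fold with no overlap (log2 fold change 0.71, SE 0.11, adjusted p = 6.46e-05). With PR-957 added it was at 5.43, 4.32 and 3.94 CPM, below every other library. This was the largest fall among the 10 genes, 2.21-fold against MI-503 (log2 fold change -1.15, SE 0.13, adjusted p = 1.62e-06), and it was 1.35-fold against DMSO (-0.44, SE 0.13, adjusted p = 0.00811). Each ELOVL6 value rests on 86 to 383 fragments. ELOVL5, which lengthens polyunsaturated chains, was at 243, 239, 218 and 236 CPM in DMSO and at 248, 245, 254 and 234 CPM in MI-503. These ranges overlap (log2 fold change 0.07, 95% interval -0.04 to 0.17), although ELOVL5 was called without MI-503 + PR-957 replicate 1 (0.11, adjusted p = 0.0169). It was also called with only the groups compared and with upper-quartile scaling. With PR-957 added it was at 215, 183 and 191 CPM, below every other library, a log2 fold change of -0.32 against MI-503 (SE 0.05, adjusted p = 1.45e-04).

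Of the acyl-CoA synthetases, ACSL3 was called and ACSL1 was not. ACSL3, which serves lipid droplets, was the one gene of the 10 that was called lower in every comparison. It was at 120, 116, 111 and 125 CPM in DMSO, at 101, 102, 106 and 101 CPM in MI-503 and at 98.0, 83.3 and 86.5 CPM in MI-503 + PR-957, with no overlap between any of the groups. The log2 fold change was -0.21 for MI-503 against DMSO (SE 0.05, adjusted p = 0.00274) and -0.20 for MI-503 + PR-957 against MI-503 (SE 0.06, adjusted p = 0.00815). ACSL1, the form known from liver and fat, was at 73.4, 83.9, 72.0 and 73.5 CPM in DMSO and at 78.6, 80.9, 82.2 and 82.0 CPM in MI-503. With PR-957 added it was at 65.8 CPM in replicate 1 and at 88.4 and 84.1 CPM in replicates 2 and 4, so that replicate 1 was the lowest and the other two the highest of all 11 libraries. In the fit of all 11 libraries ACSL1 was called in no comparison (log2 fold changes of 0.10, 0.06 and -0.03). With only the MI-503 and DMSO libraries fitted it was called higher in MI-503 (0.14, adjusted p = 0.00792). Without replicate 1 it was higher than in DMSO in both treatments, by 0.14 in MI-503 (adjusted p = 0.0102) and by 0.21 in MI-503 + PR-957 (adjusted p = 0.00224).

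Across the 10 genes, MI-503 + PR-957 replicate 1 was the library of its group nearest to the MI-503 mean for 9, the exception being ACSL1, where 38.3% of all tested genes and 41.1% of those called lower had it nearest. For SREBF1 it was 0.04 above the MI-503 mean on the log2 scale, with replicates 2 and 4 at -0.52 and -0.33. For FADS1 the values were -0.21, -0.94 and -0.83. Without this library only replicates 2 and 4 remained, and all 9 falls against MI-503 were larger and called. That follows from its lying nearest to the MI-503 mean for these 9, so it is no independent check. With replicate 2 or replicate 4 left out in its place, SREBF1 was not called (adjusted p = 0.13 and 0.0554).

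**Figure D3:**
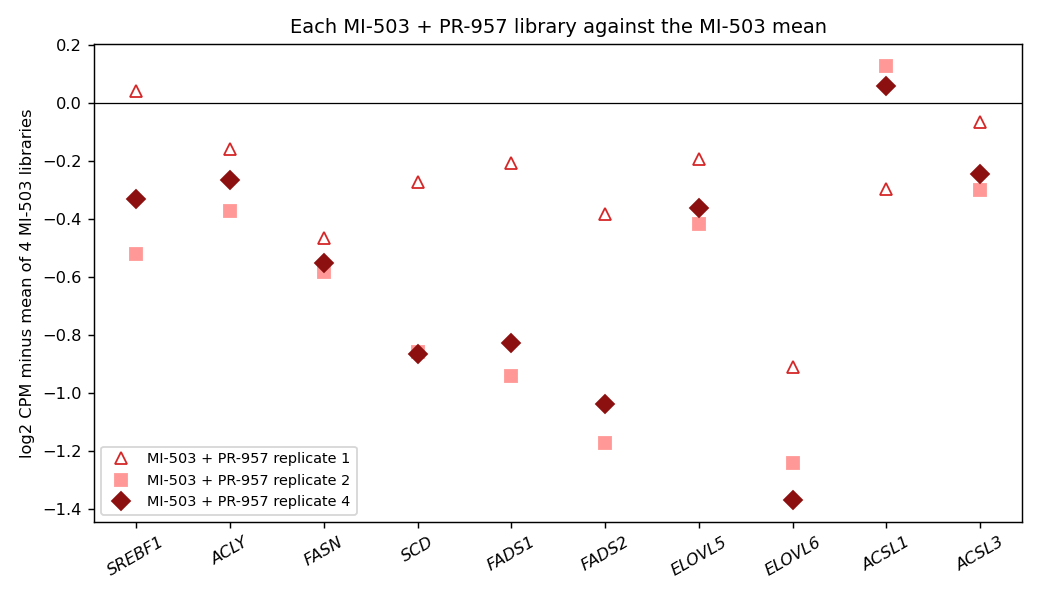
Log2 CPM of each MI-503 + PR-957 library minus the mean log2 CPM of the 4 MI-503 libraries, for the 10 genes, with replicate 1 as open triangles, replicate 2 as light squares and replicate 4 as dark diamonds. Replicates 2 and 4 lie close together, replicate 1 is nearer to 0 for every gene but ACSL1, and ACSL1 is the gene for which replicates 2 and 4 lie above 0.

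Genes of SREBP control, a list wider than SREBP processing, were called in both directions, as were all tested genes. Over all tested genes, 22% were called higher and 29.3% lower with MI-503. With PR-957 added these shares were 31.7% and 32.8% against DMSO, and 23.6% and 23.8% against MI-503. Of 16 tested genes of SREBP control, MI-503 against DMSO called 4 higher and 2 lower (median -0.04), MI-503 + PR-957 against DMSO 5 higher and 5 lower (median 0.02), and MI-503 + PR-957 against MI-503 3 higher and 5 lower (median -0.02). With MI-503 the count higher was 7 without MI-503 + PR-957 replicate 1 and the count lower 1 without its replicate 4, and against DMSO the count higher was 3 without replicate 4. The 3 medians, in the same order, were 0.00, 0.02 and -0.02 without MI-503 + PR-957 replicate 1, and the last was -0.10 without replicate 4. INSIG1, which holds SCAP in the endoplasmic reticulum and is itself an SREBP target, was at 212, 236, 226 and 223 CPM in DMSO, at 235, 240, 244 and 242 in MI-503, and at 176, 139 and 141 in MI-503 + PR-957. Its PR-957 libraries were below all others, a log2 fold change of -0.66 against MI-503 (SE 0.07, adjusted p = 6.96e-07). SREBF2, which encodes the SREBP of cholesterol synthesis, rose by 0.26 with MI-503 (adjusted p = 7.73e-05) and fell by 0.31 with PR-957 added (adjusted p = 4.81e-05), with no overlap either time, and 26.9% of its exon bases are shared with neighboring genes. The proteases that cut SREBPs changed in opposite directions with PR-957 added. MBTPS1 rose by 0.34 (adjusted p = 2.08e-05), from 99.3 ± 3.32 to 126 ± 8.02 CPM, and MBTPS2 fell by 0.38 (adjusted p = 2.75e-04), from 17.7 ± 1.22 to 13.6 ± 0.468 CPM. The escort SCAP fell by 0.13 with MI-503 (adjusted p = 0.00926), a call lost in 3 of 20 alternatives (adjusted p of 0.13 with upper-quartile scaling, 0.0805 without a filter and 0.053 without MI-503 + PR-957 replicate 4), and was not called with PR-957 added (0.04, adjusted p = 0.522). INSIG2 was called in no comparison. The liver X receptor genes NR1H3 and NR1H2, whose products act on the SREBF1 promoter, were called higher in MI-503 + PR-957 than in DMSO, by 0.41 (adjusted p = 0.00487) and 0.13 (adjusted p = 0.0366). For NR1H2 the groups overlapped, and its call was lost in 8 of 20 alternatives, with an adjusted p of up to 0.195 (without MI-503 + PR-957 replicate 4). The others were without its replicate 2 (0.17), without DMSO replicates 1, 3 or 4 (0.0744, 0.0663 and 0.0799), limma-voom (0.0519), only the groups compared (0.0504) and a threshold of 0.01.

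The liver X receptors (LXR) have other targets beside SREBF1. With MI-503, 4 of 7 tested rose and none fell (median 0.82), and against DMSO with PR-957 added 5 rose and 1 fell (median 1.48). ABCG1, also on the list, was at 0 in every library and was not tested. Some of the 7 had few fragments in the DMSO libraries, with 5 to 8 for APOE, 4 to 17 for APOC1 and 29 to 38 for PLTP. Over all tested genes, 22% were called higher and 29.3% lower with MI-503. With PR-957 added these shares were 31.7% and 32.8% against DMSO, and 23.6% and 23.8% against MI-503. ABCA1, a cholesterol exporter, was at 8.02 ± 1.25 CPM in DMSO and 33.1 ± 2.99 CPM in MI-503 (log2 fold change 2.04, SE 0.19, adjusted p = 1.39e-07). With PR-957 added to MI-503, SMPDL3A (0.64, adjusted p = 3.13e-04) and PLTP (0.66, adjusted p = 4.14e-04) rose further and LPCAT3 fell (-0.21, adjusted p = 0.028), a call lost in 5 of 20 alternatives with an adjusted p of up to 0.0821 (without MI-503 replicate 3). LPCAT3 shares 67.5% of its exon bases with other genes. The median of the 7 was 0.33 in that comparison, with 2 called higher and 1 lower, and the count lower was 2 without MI-503 + PR-957 replicate 1 and 0 without its replicate 2 or without MI-503 replicates 3 or 4. Without MI-503 + PR-957 replicate 1 the medians with MI-503, against DMSO and against MI-503 were 0.87, 1.48 and 0.50.

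Genes of carbon supply and carboxylation, a list wider than the supply of carbon and reducing power to FASN, went in different directions. Over all tested genes, 22% were called higher and 29.3% lower with MI-503. With PR-957 added these shares were 31.7% and 32.8% against DMSO, and 23.6% and 23.8% against MI-503. Of the 8 tested genes of this list, MI-503 raised 4 and lowered 2 (median 0.10). MI-503 + PR-957 raised 5 and lowered 3 against DMSO (median 0.21), and 2 rose and 1 fell against MI-503 (median 0.05). With MI-503 1 gene was lower without DMSO replicate 1. Against MI-503 the count higher was 1 without MI-503 + PR-957 replicate 2, and the count lower was 2 without MI-503 replicate 1 and 4 without MI-503 + PR-957 replicate 4. The medians, in the same order, were 0.15, 0.27 and 0.00 without MI-503 + PR-957 replicate 1, and the last was -0.02 without replicate 4. SLC25A1, which exports citrate from mitochondria, was at 163 ± 8.40 CPM in DMSO, 185 ± 3.44 in MI-503 and 126 ± 3.72 in MI-503 + PR-957. It rose by 0.18 with MI-503 (adjusted p = 0.00168) and fell by 0.55 with PR-957 added (adjusted p = 6.02e-08). ME1, the malic enzyme that makes NADPH, fell by 0.47 with MI-503 (adjusted p = 0.0132), with overlapping groups, and rose with PR-957 added. It was at 10.4, 6.94, 9.49 and 10.1 CPM in DMSO, at 5.18, 6.34, 7.64 and 7.66 in MI-503 and at 33.4, 24 and 27.8 in MI-503 + PR-957, a log2 fold change of 2.09 against MI-503 (SE 0.14, adjusted p = 4.79e-09). IDH1, another NADPH source, rose by 0.58 with MI-503 (adjusted p = 3.14e-09) and by 0.16 more with PR-957 added (adjusted p = 0.00314, and 0.0784 without MI-503 + PR-957 replicate 2). ACSS2, which makes acetyl-CoA from acetate, rose by 0.79 with MI-503 (adjusted p = 1.05e-07), and MCAT, of the mitochondrial fatty acid synthesis pathway, fell by 0.61 (adjusted p = 1.6e-07).

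**Figure D4:**
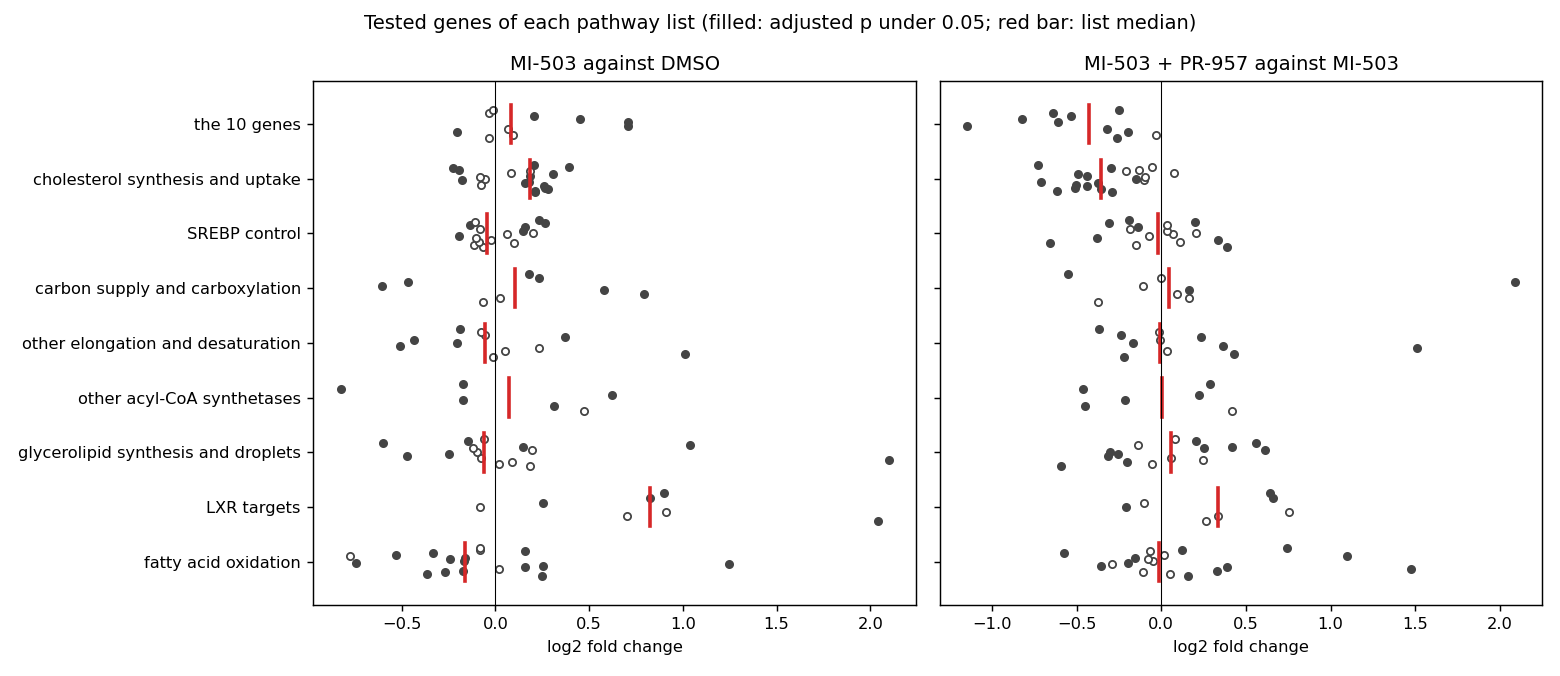
Log2 fold change of every tested gene of 9 gene lists (points; filled with an adjusted p under 0.05) and the list median (red bar), for MI-503 against DMSO on the left and MI-503 + PR-957 against MI-503 on the right. With PR-957 added the medians of the 10 genes (-0.43) and of cholesterol synthesis and uptake (-0.35) lie below 0 and the other medians between -0.02 and 0.33.

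Other elongases, desaturases and acyl-CoA synthetases were called in both directions, as were all tested genes. The latter gave 22% higher and 29.3% lower with MI-503, 31.7% and 32.8% in MI-503 + PR-957 against DMSO, and 23.6% and 23.8% against MI-503. Of 11 further elongation and desaturation genes, 2 rose and 4 fell with MI-503 (median -0.05), 3 rose and 5 fell in MI-503 + PR-957 against DMSO (median -0.14), and 4 rose and 4 fell against MI-503 (median -0.01), where 2 rose on leaving out MI-503 replicate 3 or 4 or MI-503 + PR-957 replicate 2 or 4. The medians of these 11 genes were -0.01, -0.27 and -0.01 without MI-503 + PR-957 replicate 1. FADS3, next to FADS1 and FADS2 on chromosome 11, was at 2.64 ± 0.108 CPM in MI-503 and 7.48 ± 1.56 CPM with PR-957 added (log2 fold change 1.51, SE 0.14, adjusted p = 2.05e-07), opposite in direction to FADS1 and FADS2. TECR, the last enzyme of the elongation cycle, fell by 0.37 (adjusted p = 1.41e-04). Of 6 other acyl-CoA synthetases, 2 rose and 3 fell with MI-503 (median 0.07), 1 rose and 3 fell in MI-503 + PR-957 against DMSO (median -0.01), and 2 rose and 3 fell against MI-503 (median 0.00). The count higher against DMSO became 2 when replicate 2 of any group or MI-503 + PR-957 replicate 1 was left out, and that against MI-503 was 1 without MI-503 + PR-957 replicate 2. The medians of the 6 were 0.12, -0.01 and -0.08 without MI-503 + PR-957 replicate 1. ACSL4, which prefers arachidonate, rose by 0.31 with MI-503 (adjusted p = 7.69e-05) and fell by 0.45 with PR-957 added (adjusted p = 5.39e-06). SLC27A2 fell in each comparison, by 0.82 with MI-503 (adjusted p = 4.09e-08) and by 0.46 more with PR-957 added (adjusted p = 1.14e-04).

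Cholesterol synthesis and uptake, the pathway driven by SREBF2, fell in most tested genes with PR-957 added. Over all tested genes, 22% were called higher and 29.3% lower with MI-503. With PR-957 added these shares were 31.7% and 32.8% against DMSO, and 23.6% and 23.8% against MI-503. Of the 19 tested genes of this pathway, 11 rose and 3 fell with MI-503 (median 0.18). In MI-503 + PR-957, 2 rose and 13 fell against DMSO (median -0.21), and none rose and 13 fell against MI-503 (median -0.35). The count higher against DMSO was 1 without DMSO replicate 1 or 4 or MI-503 + PR-957 replicate 1, and without the last the medians were 0.23, -0.28 and -0.42. SQLE went from 101 ± 5.36 CPM in DMSO to 116 ± 3.52 in MI-503 and 70.3 ± 6.77 in MI-503 + PR-957, and fell by 0.72 against MI-503 (adjusted p = 6.01e-08). Fatty acid oxidation gave 5 rises and 9 falls among 18 genes with MI-503 (median -0.16), 6 and 8 in MI-503 + PR-957 against DMSO (median -0.03), and 7 rises and 4 falls against MI-503 (median -0.02), the falls being 2 without MI-503 replicate 3. These medians were -0.12, 0.02 and 0.00 without MI-503 + PR-957 replicate 1. ACADVL, which opens the mitochondrial oxidation of very long chains, was at 272, 276, 262 and 263 CPM in MI-503 and at 680, 776 and 779 CPM with PR-957 added (log2 fold change 1.47, SE 0.05, adjusted p = 3.68e-12). HADH, of the same pathway, fell by 0.58 (adjusted p = 1.6e-07). Where no gene of a list is said to have risen or fallen over all 11 libraries, none passed in that direction at an unadjusted p under 0.05, or with DESeq2 or limma-voom, and the same holds for the 10 genes. The differences between these lists and the 10 genes were not tested.

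Over all tested genes, 22% were called higher and 29.3% lower with MI-503. With PR-957 added these shares were 31.7% and 32.8% against DMSO, and 23.6% and 23.8% against MI-503. Glycerolipid synthesis and droplet genes were mixed as well, with 3 rises and 4 falls among 15 with MI-503 (median -0.06). They gave 4 and 5 in MI-503 + PR-957 against DMSO (median -0.02), and 5 and 5 against MI-503 (median 0.06). Without MI-503 + PR-957 replicate 1 the falls against DMSO were 3 and the medians -0.02, 0.07 and 0.08, and without replicate 4 the last was -0.07. CD36, a fatty acid importer, was at 3.85 ± 0.912 CPM in DMSO, 16.4 ± 0.814 in MI-503 and 19.4 ± 1.16 in MI-503 + PR-957 (log2 fold change 2.10 with MI-503, adjusted p = 3.12e-10). PLIN2, a droplet coat protein, fell by 0.60 with MI-503 (adjusted p = 1.08e-05) and rose by 0.56 with PR-957 added (adjusted p = 4.85e-05). Of the 11 tested genes of myeloid leukemia identity, MI-503 raised 8 and lowered 3 (median 0.25), MI-503 + PR-957 raised 7 and lowered 3 against DMSO (median 0.18) and 5 rose and 2 fell against MI-503 (median 0.10). In the last, 3 rose without MI-503 replicate 1 or MI-503 + PR-957 replicate 2 or 4, and 4 fell without its replicate 1. The medians without MI-503 + PR-957 replicate 1 were 0.30, 0.35 and 0.02, that against DMSO was 0.29 without DMSO replicate 2, and that against MI-503 was 0.05 without MI-503 + PR-957 replicate 4. Of the 4 tested markers of other cell types, 2 rose and none fell with MI-503 (median 0.27), 2 rose and none fell in MI-503 + PR-957 against DMSO (median 0.61), and 2 rose and 1 fell against MI-503 (median 0.18). Without MI-503 + PR-957 replicate 1, 1 fell against DMSO, and 1 rose and 2 fell against MI-503, and without replicate 4 none fell against MI-503. The medians without replicate 1 were 0.31, 0.47 and 0.07, and that with MI-503 ran from 0.14 (without DMSO replicate 4) to 0.51 (without DMSO replicate 2).

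The genes most like SREBF1, FASN and SCD were sought among 10040 genes by the root mean square difference of log2 CPM, centered on DMSO, over the 7 treated libraries. For SREBF1 they were CIT (0.06), ETS2 (0.08), DSG2, SCLT1 and PRKACB (0.10 each). Of the other 9 genes ACLY came nearest at rank 11, followed by ELOVL5 (60), ACSL3 (724) and FASN (1062). SCD was at rank 3131, ACSL1 at 5395, FADS2 at 5517, ELOVL6 at 8136 and FADS1 at 8269. For FASN they were JARID2 (0.04), LSS, LSM8, STING1 (0.06 each) and SLC25A1 (0.07). For SCD they were PDE4A, KCNQ5 (0.10 each), RAVER2, ANXA2R (0.11 each) and LOC105378120 (0.12). The other 9 genes ranked from 77 (ELOVL5) to 6960 (FADS1) for FASN, and from 439 (ACSL3) to 8007 (FADS1) for SCD. The choice of the nearest genes depended on single libraries. Without MI-503 + PR-957 replicate 1, none of the 5 named for SREBF1 was among its 5 nearest, and under the other scalings and omissions 2 to 5 were. Over all of these settings 2 to 5 of the genes named for FASN and 1 to 5 of those named for SCD stayed among the 5 nearest.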

How the data were processed

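RNA from 11 MOLM-13 libraries had gone through TruSeq RNA library preparation and paired-end sequencing. Per the submitters' processing notes and file headers, the authors used Trimmomatic 0.39, STAR 2.7.10a on hg38 and featureCounts 2.0.1 with RefSeq exons, without strand, on alignments filtered by an unstated rule. Each deposited file holds unnormalized counts per gene, with fragments that map to several places or overlap several genes left out. This can lower genes with copies on other contigs (ACACA, AGPAT1, DGAT1, FDFT1, LSS and SLC27A3) or shared exons. The authors' DESeq2 tables (log2 fold changes, errors and p-values) were not used.

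The counts were tested in edgeR 4.0.16 under R 4.3.3, with limma 3.58.1 and DESeq2 1.42.0 as alternatives, and in Python 3.11.15. Genes passing filterByExpr (minimum count 10, minimum total 15) entered 1 quasi-likelihood model of all 11 libraries with TMM factors (0.956 to 1.06), a mean per group and 8 residual degrees of freedom. The common dispersion was 0.00378. The fit was also run on counts simulated from its own model, without a library that stood apart. That run cannot test how MI-503 + PR-957 replicate 1 affects the results. CPM use TMM-scaled totals of counted fragments, log2 CPM a prior count of 0.5, and RPKM the summed exon length. Totals of 18.9 to 41.2 M fragments set the precision of low genes.

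The 10 genes and the gene lists were chosen with earlier results of these data known. Named were the 10 genes, 8 SREBP control genes, members of the other lists with the 3 smallest adjusted p in a comparison, and the 5 genes most like SREBF1, FASN and SCD with a mean of at least 5 CPM. PECAM1 and the named markers of other cell types follow their list. Some members of that list are counted in it but not reported here by name. Alternatives were RLE and upper-quartile factors, no filter and a minimum count of 50, DESeq2, limma-voom, only the groups compared, a replicate block, a threshold of 0.01 and leaving out each library.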

Additional observations from a re-analysis of the deposited data

Results flagged for a closer look

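Within groups of 4, 68 genes gave 136 tests for a library far from the other 3, of which 10 passed Dixon's 95% limit, and chance flags about 1 in 20 groups. Of the genes of fatty acid synthesis, ELOVL6 (7.67 CPM, the others at 5.74 to 5.91) and ACSL1 (83.9 CPM, the others at 72.0 to 73.5) were highest in DMSO replicate 2, as was SQLE (109 CPM, the others at 97.3 to 99.2). MI-503 replicate 4 was the lowest for INSIG2 (9.95 CPM), NR1H3 (6.51 CPM) and PLIN2 (10.4 CPM). MI-503 replicate 2 was the highest for MGLL (15.9 CPM) and HADH (53.9 CPM). LPIN2 was lowest in DMSO replicate 3 (29.3 CPM) and PDE4A in DMSO replicate 1 (84.6 CPM).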

How the results depend on the processing

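Over 20 alternatives, FASN, FADS1, FADS2 and ELOVL6 kept their rise and ACSL3 its fall with MI-503, and FASN, SCD, FADS1, FADS2, ACLY, ELOVL5, ELOVL6 and ACSL3 their falls with PR-957 added, each with its call. The count of the 10 genes called higher in MI-503 + PR-957 against DMSO ran from 0 to 1 on leaving out single libraries (ACSL1, without MI-503 + PR-957 replicate 1), and that of genes called lower from 6 to 8. With MI-503, log2 fold changes that were not called changed sign. For SREBF1 they were 0.0127 with RLE factors and with DESeq2, 0.0474 with upper-quartile factors, 0.0054 without a filter, 0.0114 with the stricter filter and 0.0335 with only the groups compared. For SCD they were 0.0272 with upper-quartile factors and 0.0133 with only the groups compared, and for ACLY 0.0303 and 0.0164. MBTPS1 gave 0.0063 with RLE factors, 0.0412 with upper-quartile factors, 0.0051 with the stricter filter, 0.0062 with DESeq2 and 0.0266 with only the groups compared, and SREBF2 in MI-503 + PR-957 against DMSO gave 0.0256 with upper-quartile factors. The cause was not tested. Of the counts and medians of the gene lists under the alternatives, 1813 stayed close to the values given and 167 moved. List medians near 0 turned sign with single libraries left out.

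Leaving out single libraries also turned the sign of some values. With MI-503 the range was -0.0652 to 0.0303 for SREBF1, -0.0657 to 0.0103 for SCD, -0.0395 to 0.0133 for ACLY and -0.0417 to 0.0237 for MBTPS1. In MI-503 + PR-957 against DMSO it was -0.154 to 0.228 for FADS1, -0.0189 to 0.206 for ACSL1 and -0.0036 to 0.0559 for INSIG2. Against MI-503 it was -0.152 to 0.0647 for ACSL1, -0.0463 to 0.0445 for SCAP and -0.0118 to 0.116 for NR1H2.

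The labels do not say whether the replicate numbers pair the libraries, and the following correlations cannot decide it. Of 10 pairs of libraries with the same number, 1 had a correlation of deviations over 0.1 (range -0.10 to 0.14). Of 30 pairs with different numbers, 1 did (range -0.13 to 0.12). With the replicate block, calls over the 10 genes stayed at 4 higher and 1 lower, 0 and 8, and 0 and 9. Depth limits ELOVL6 most, with 86 fragments in the library with the fewest.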
